A study of Mus musculus with 16 samples.

Results

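The repair genes described here were chosen by name, and every probe that measured them was read on 16 one-colour Agilent mouse expression arrays of cerebral cortex. The 10 members were Mgmt, Alkbh2 and Alkbh3, which repair alkylated bases directly, Xpc, Ddb2, Xpa, Ercc1 and Ercc5, which act in nucleotide excision repair, Polk, a polymerase that copies past damaged bases, and Rrm2b, which supplies deoxynucleotides. They are 10 of 17436 genes tested and were measured by 17 of 56605 probes. Of the members, 4 had 1 probe, 5 had 2 and 1 had 3. All 17 probes passed the filter on dim probes, and 16 of them were well above background on every array.

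The study compared male mice on a C57BL/6 background, 28 to 42 weeks old per the labels, with 1 array per mouse and 4 mice in each of 4 groups. Wild-type sham mice were littermates placed in the irradiator without radiation, and irradiated wild-type mice received 6 Gy of whole-body gamma rays at 0.74 Gy/min. Labelled knockout sham and irradiated labelled knockout mice were Neil1-/- animals given the same handling and the same dose. The labels do not state which part of Neil1, a glycosylase that removes oxidised bases, was deleted. The protocol given for all samples states that BrdU, a thymidine analogue, was given by injection (100 mg/kg) ahead of irradiation and a second time at 2 h, so every comparison was made in mice that carried it. Cortex was taken 20 h after the exposure.

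Cells remove damaged bases by several routes. MGMT takes alkyl groups from the oxygen of guanine onto its own cysteine in a single use of each protein molecule, whereas ALKBH2 and ALKBH3 oxidise methyl groups away from adenine and cytosine. In nucleotide excision repair the damage is found, the helix is opened and checked, a short strand is cut out on both sides and the gap is filled. Damage that remains when DNA is copied can be passed by specialised polymerases such as polymerase kappa. Ionising radiation activates the transcription factor p53, and DDB2, XPC and RRM2B are known as p53 target genes in human cells.

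All levels below are log2 processed signals relative to the 75th percentile of the same array. That percentile lay between 1075 and 2725 intensity units. It averaged 2415 and 2301 on wild-type sham and irradiated arrays, and 1778 and 1333 on those of the labelled knockout. On an array, 62.3% to 72.5% of spots were well above background. In wild type this share was 69.3% to 72.5% on sham and 66.5% to 68.3% on irradiated arrays. All wild-type arrays shared 1 slide and 1 scan and all labelled knockout arrays another, so genotype and slide cannot be told apart. Sham arrays occupied the first row of each slide and irradiated arrays the second, so treatment and row cannot be told apart either. Neil1 was brighter in the labelled knockout, at -2.60 to -2.15 on those 8 arrays against -4.32 to -3.30 in wild type, and its probe therefore does not check the genotype labels. Markers of excitatory cortical neurons were present for 7 of 8 genes, all except Rorb, and the 7 markers of striatal neurons were measured too, with a summed linear signal of 31.4 to 193 times the 75th percentile. The RNA came from whole cortex, in which fewer or more cells holding a transcript and less or more of it per cell cannot be told apart.

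Mgmt was the one member that passed the test after irradiation, and it rose in both genotypes. In wild-type sham its probe read -2.42, -2.02, -2.44 and -2.35 in the 4 mice, against -1.05, -1.04, -0.86 and -0.72 in irradiated wild type. Every irradiated wild-type mouse lay above every sham mouse. In labelled knockout sham the values were -2.71, -2.22, -2.21 and -2.67, against -1.24, -1.17, -1.01 and -0.99 after irradiation. Again the groups did not overlap, and in each genotype the lowest irradiated mouse lay 0.97 log2 units above the highest sham mouse.

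The promoter sequence of Mgmt is shown with those of Alkbh3 and Polk because Mgmt rose and neither Alkbh3, another direct-reversal gene, nor Polk was called. RefSeq promoter windows of build GRCm38.p6 matched 7 of the 10 members by symbol, and Xpc, Ddb2 and Rrm2b had none in that table. Each run below is the part of such a window that lies before the outermost annotated start of the gene, 5′ to 3′ on the strand of the gene, with the GC box (GGGCGG on either strand) in capitals. The Mgmt run spans chr7:136894336-136894462 on the plus strand, the Alkbh3 run chr2:94010825-94010980 on the minus strand and the Polk run chr13:96542580-96542829 on the minus strand.
Mgmt: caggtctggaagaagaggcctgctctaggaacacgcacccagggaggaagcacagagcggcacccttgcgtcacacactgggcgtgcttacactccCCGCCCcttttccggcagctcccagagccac
Alkbh3: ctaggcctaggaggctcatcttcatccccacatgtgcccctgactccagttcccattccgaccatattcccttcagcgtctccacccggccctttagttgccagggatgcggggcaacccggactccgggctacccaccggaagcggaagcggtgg
Polk: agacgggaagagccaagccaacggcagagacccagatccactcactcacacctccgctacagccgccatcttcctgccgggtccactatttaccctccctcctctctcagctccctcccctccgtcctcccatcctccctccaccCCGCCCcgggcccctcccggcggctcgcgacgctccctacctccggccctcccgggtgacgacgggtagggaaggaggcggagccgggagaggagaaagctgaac

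Mgmt has 2 annotated starts in the table. The full window of 300 bases at the first start (chr7:136894336-136894635) held 4 GC boxes, 20 CpG sites and 66.3% G and C, whereas the window at the second start (chr7:136912848-136913147) held 0 GC boxes, 3 CpG sites and 52.0% G and C. Across 32851 promoter windows of this length, 35.7% held a GC box, 5.49% held at least 4, and the median window had 7 CpG sites and 52.7% G and C. The Alkbh3 window (18 CpG sites, 62.0% G and C) held 0 GC boxes, and the 2 Polk windows held 1 and 0. Neither Mgmt window held a TATA box (TATAAA, in 13.6% of all windows), a CCAAT box (CCAAT, 37.4%) or an E-box (CACGTG, 7.15%), searched on both strands. The p53 half-site consensus occurred in 8.36% of all windows, in 1 of the 2 Polk windows (chr13:96519138-96519437) and in neither Mgmt window. These matches describe letters in short windows and show no binding.

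Mgmt averaged -2.30 ± 0.20 (SD, n = 4) in wild-type sham and -0.91 ± 0.16 in irradiated wild type. That is a log2 change of 1.39 ± 0.14 (SE, 95% confidence interval 1.09 to 1.69), or 2.62-fold (limma, Benjamini-Hochberg adjusted p = 0.000313). In labelled knockout it averaged -2.45 ± 0.27 in sham and -1.10 ± 0.12 after irradiation, a change of 1.35 ± 0.14 (interval 1.05 to 1.65), or 2.55-fold (adjusted p = 0.000459). The average over genotypes was 1.37 ± 0.10 (limma adjusted p = 4.12e-06). Set against the sham mean of its genotype, each irradiated mouse was higher, by 2.31-fold to 3.01-fold. An exact two-sided permutation test gave p = 0.0286 in each genotype, which is the smallest that 4 against 4 arrays allow.

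Mgmt stood among few called genes, meaning genes with a limma adjusted p under 0.05. In wild type 1 of 10 members was called, Mgmt, against 13 of 17436 genes (0.0746%). In labelled knockout the count was 1 of 10 against 21 genes (0.12%), and in the average over genotypes 1 of 10 against 53 genes (0.304%). Groups that did not overlap were found for 1 of 10 members, again Mgmt, in wild type (1.97% of all genes) and in labelled knockout (2.19%). By p-value Mgmt ranked 5 among all genes in each of the 3 comparisons. By size of increase it ranked 16, 20 and 9 among all genes, and 6, 6 and 7 among the called genes.

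The response of Mgmt did not differ detectably between genotypes. Its levels ran, from high to low, irradiated wild type, irradiated labelled knockout, wild-type sham and labelled knockout sham. Between the irradiated groups the difference was -0.19 (labelled knockout minus wild type, interval -0.49 to 0.12, limma adjusted p = 0.56), and between the sham groups -0.14 (-0.45 to 0.16, adjusted p = 0.894). Both neighbouring pairs overlapped, and only the step between irradiated and sham groups exceeded the spread between mice. The difference between the 2 irradiation responses was -0.04 (labelled knockout minus wild type, interval -0.47 to 0.39, adjusted p = 1). Limma called 0 of 10 members and 0 of 17436 genes (0%) for this difference of responses, 222 genes had an unadjusted p under 0.05, and the count was 0 in each of 28 alternative settings too.

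**Figure D1:**
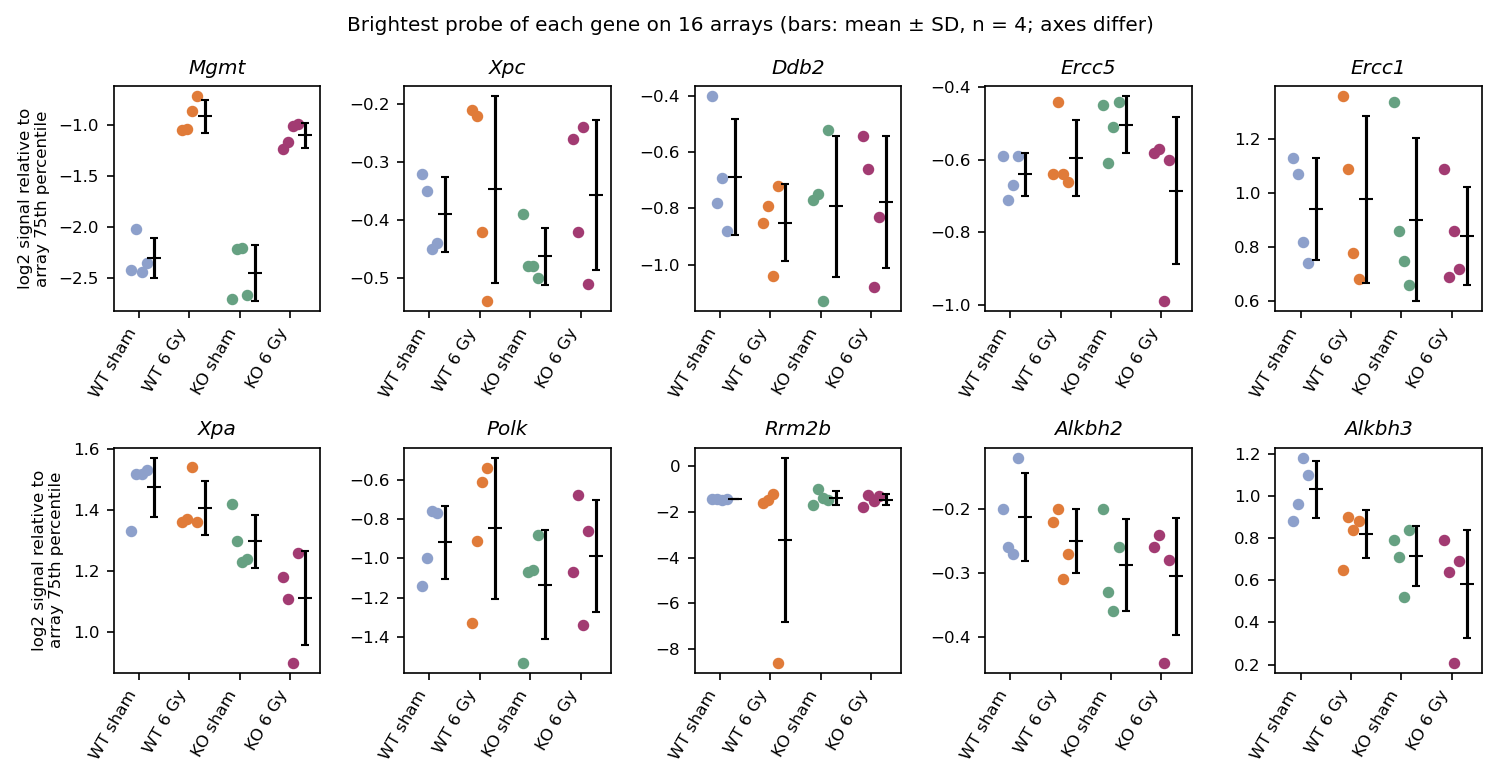
Level of each member's brightest probe on the 16 arrays (y axis, log2 signal over the 75th percentile of the same array, with a different range in each panel), by group (x axis, KO is the labelled knockout), with the mean and SD of 4 mice as bars. Mgmt separates sham (-2.71 to -2.02) from irradiated mice (-1.24 to -0.72) in both genotypes, the groups of the other members overlap between sham and irradiated mice, and 1 Rrm2b spot lies at -8.61.

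Marker levels of several cell types differed, most often lower, on the arrays on which Mgmt was higher. Among all genes, 24 of 17436 (0.138%) were called lower in the average over genotypes. Of 6 tested dividing-cell markers (Cdk1 and Bub1 were not tested), 6 were lower in that average and 3 fell. Their summed linear signal, relative to the 75th percentile, ran from 0.0887 to 0.199 in wild-type sham and from 0.0419 to 0.0466 in irradiated wild type, and from 0.0907 to 0.214 and 0.0305 to 0.105 in the labelled knockout. On irradiated arrays these sums were below those of every other marker list, so these are dim signals. A probe needed only 4 of 16 arrays well above background, so such markers can be kept through their sham arrays alone. The size of their falls is therefore uncertain. Of 8 oligodendrocyte precursor markers, 8 were lower and 2 fell, with sums of 26.3 to 40.3 and 18.5 to 33.8 in wild type and of 22.9 to 38.2 and 20.9 to 34.2 in the labelled knockout. Of 8 microglia markers, 7 were lower and 1 fell, with sums of 31.3 to 37.4 and 25.1 to 31.3 in wild type and of 27.2 to 35.3 and 23.9 to 28.1 in the labelled knockout. Of 8 lymphocyte markers 3 were tested, of which 2 fell and 1 was higher. Their sums overlapped, at 0.189 to 0.286 and 0.189 to 0.280 in wild type and 0.236 to 0.369 and 0.237 to 0.315 in the labelled knockout. Of 7 striatal neuron markers 7 were lower in the average and 0 called, with sums of 53.9 to 154 and 31.4 to 193 in wild type and of 33.9 to 174 and 33.5 to 132 in the labelled knockout. Of 8 mature oligodendrocyte markers 0 were called, with 8 lower in wild type (median -0.36, sums of 85.0 to 147 and 83.2 to 122) and 7 higher in labelled knockout (median 0.17, sums of 81.0 to 148 and 93.9 to 162). Of 7 choroid plexus markers 6 were higher in the average and 0 called, with sums of 1.11 to 2.32 and 1.11 to 4.44 in wild type and of 0.635 to 3.04 and 1.42 to 3.21 in the labelled knockout. In the average 6 of 7 excitatory neuron markers, 5 of 8 astrocyte markers and 4 of 7 GABA interneuron markers were higher, and 4 of 7 endothelial markers lower, with 0 called. Between genotypes all 7 excitatory neuron markers were higher in the labelled knockout, by a median of 0.315 in sham and 0.355 after irradiation (0 called). Other lists differed too. All 7 choroid plexus markers were lower in sham (median -0.456), and after irradiation 3 were higher and 4 lower (median -0.052). Of 8 mature oligodendrocyte markers 7 were lower in sham (median -0.185) and 8 higher after irradiation (0.214). Of 8 astrocyte markers 4 were higher and 4 lower after irradiation, and 1 was called higher, against 0.82% of all genes. The part of these cells in the rise of Mgmt, or in a difference of a member between genotypes, was not tested.

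The genes whose levels were most like those of Mgmt were found by Pearson correlation over the 16 arrays. They were Ephx1 (r = 0.985), the microsomal epoxide hydrolase, Trp53inp1 (0.957), a p53-induced regulator of autophagy, Aldh4a1 (0.951), a mitochondrial dehydrogenase of proline breakdown, Dglucy (0.948), the mitochondrial D-glutamate cyclase, Eda2r (0.938), a receptor of the tumour necrosis factor receptor family, and Rps27l (0.934), a ribosomal protein paralogue. The arrays fall into a sham and an irradiated cluster, so these correlations include the step between them. After each group's mean was subtracted, the correlation with Mgmt was 0.874 for Aldh4a1, 0.787 for Dglucy and 0.734 for Ephx1, but 0.23 for Rps27l, 0.002 for Trp53inp1 and -0.255 for Eda2r. Pooled over the groups, Aldh4a1, Dglucy and Ephx1 thus tended to vary with Mgmt between mice, but not in every group. Across the irradiated labelled knockout mice, Ephx1 and Aldh4a1 did not rise steadily with Mgmt. All genes named here were chosen by their correlation with Mgmt on the same arrays, which includes the part within groups. That choice favours high values within groups, and whether these exceed those of other genes was not tested.

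Aldh4a1 and Dglucy followed Mgmt at smaller size. Aldh4a1 averaged 1.80 and 2.15 in wild-type sham and irradiated mice and 1.73 and 2.06 in the labelled knockout, a change of 0.34 ± 0.07 over both genotypes (limma adjusted p = 0.0461). Dglucy averaged -0.31 and 0.46 in wild type and -0.45 and 0.29 in the labelled knockout, a change of 0.75 ± 0.11 (adjusted p = 0.00532). Neither was called in a single genotype (adjusted p = 0.772 and 0.474 for Aldh4a1, 0.176 and 0.153 for Dglucy). Among labelled knockout sham mice, replicates 1 and 4 read -2.71 and -2.67 for Mgmt, 1.52 and 1.63 for Aldh4a1 and 2.22 and 2.15 for Ephx1. Replicates 2 and 3 were higher in all 3 genes, at -2.22 and -2.21, 1.90 and 1.84, and 2.40 and 2.58. Eda2r was well above background on 8 of 16 arrays, none of them sham, so its sham values are no measured levels.

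**Figure D2:**
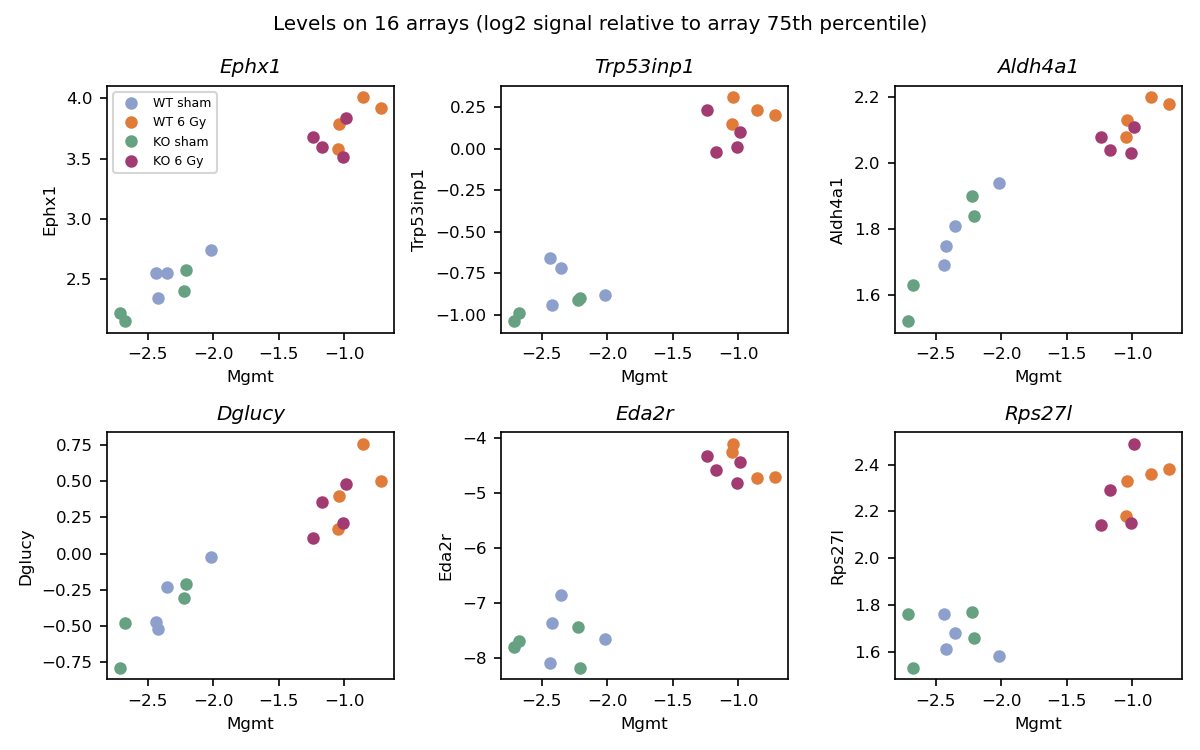
Level of the 6 genes most correlated with Mgmt (y axes) against Mgmt (x axes) on the 16 arrays, both as log2 signal over the 75th percentile of the same array, coloured by group. Sham and irradiated arrays form separate clusters for each gene. With group means subtracted, Aldh4a1, Dglucy and Ephx1 also correlate with Mgmt. Ephx1 and Aldh4a1 do not rise steadily with it across the irradiated labelled knockout mice.

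No other member was correlated with Mgmt to that degree. The correlation with Mgmt over 16 arrays ran from -0.369 for Ercc5 to 0.294 for Polk. After each group's mean was subtracted, it ran from -0.628 for Alkbh2 to 0.268 for Polk, and all members except Polk were negative. Ddb2 was then at -0.513, Ercc5 at -0.502 and Ercc1 at -0.403.

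The other direct-reversal enzymes were not called after irradiation. Alkbh2, which repairs methylated bases in double-stranded DNA, read -0.20, -0.26, -0.27 and -0.12 in wild-type sham, against -0.22, -0.20, -0.31 and -0.27 in irradiated wild type. In the labelled knockout it read -0.20, -0.33, -0.36 and -0.26 in sham and -0.26, -0.24, -0.44 and -0.28 after irradiation. The groups overlapped throughout, and the change over both genotypes was -0.03 ± 0.05 (interval -0.14 to 0.09, limma adjusted p = 1), which bounds a rise of Alkbh2 at 1.07-fold. Alkbh3, which prefers single-stranded DNA and RNA, changed by -0.21 ± 0.13 in wild type and -0.13 ± 0.13 in labelled knockout, and by -0.17 ± 0.09 over both (interval -0.36 to 0.02). Its second probe changed by -0.23 ± 0.22 and 0.01 ± 0.22 in the 2 genotypes.

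Alkbh3 was lower in labelled knockout than in wild-type sham mice without passing the test. Wild-type sham mice read 0.88, 0.96, 1.18 and 1.10 and labelled knockout sham mice 0.79, 0.71, 0.52 and 0.84, so the groups did not overlap. It was the one member of 10 of which this held, against 4.82% of all genes. The difference was -0.32 ± 0.13 (1.25-fold lower, limma unadjusted p = 0.0252, adjusted p = 0.565), and the second probe differed by 0.00 (-0.003 ± 0.222). Limma called 0 of 10 members between the sham groups, against 9 of 17436 genes (0.0516%).

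The damage sensors of nucleotide excision repair were not called either, and their groups overlapped. Xpc, which recognises distorted helices across the genome, read -0.32, -0.35, -0.45 and -0.44 in wild-type sham, against -0.21, -0.22, -0.42 and -0.54 in irradiated wild type. In the labelled knockout it read -0.39, -0.48, -0.48 and -0.50 in sham and -0.26, -0.42, -0.24 and -0.51 after irradiation. In each genotype 2 irradiated mice were above all sham mice and 1 was below them all. The change was 0.04 ± 0.10 in wild type and 0.11 ± 0.10 in labelled knockout (limma adjusted p = 1 each), and over both genotypes the interval of -0.07 to 0.22 bounds a rise at 1.16-fold. That bound holds for the brightest Xpc probe. The second Xpc probe changed by 0.14 ± 0.19 and -0.04 ± 0.19, and its interval over both genotypes allows a rise of 1.27-fold.

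Ddb2, the subunit that binds ultraviolet photoproducts and brings XPC to them, read -0.40, -0.78, -0.69 and -0.88 in wild-type sham, against -0.85, -0.79, -1.04 and -0.72 in irradiated wild type. In the labelled knockout it read -0.77, -0.75, -1.13 and -0.52 in sham and -0.54, -0.66, -1.08 and -0.83 after irradiation. The ranges overlapped in both genotypes. Ddb2 changed by -0.16 ± 0.15 in wild type and 0.02 ± 0.15 in labelled knockout, and its second probe by -0.07 ± 0.15 and 0.03 ± 0.15. Over both genotypes the interval of the brightest probe was -0.30 to 0.16, so a rise of more than 1.11-fold lay outside it. The interval of the second probe allows 1.155-fold.

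Nor was a verification or incision gene among the members called after irradiation. Ercc5, which encodes the XPG nuclease that cuts 3′ of the lesion, averaged -0.64 ± 0.06 in wild-type sham and -0.60 ± 0.10 in irradiated wild type, and -0.50 ± 0.08 and -0.69 ± 0.20 in the labelled knockout. The lower irradiated labelled knockout mean includes replicate 3 at -0.99, against -0.58, -0.57 and -0.60 in the others. The change of Ercc5 was 0.04 ± 0.10 in wild type and -0.18 ± 0.10 in labelled knockout, and the difference of the 2 responses was -0.23 ± 0.14 (limma adjusted p = 1). Ercc1, the partner of the XPF nuclease that cuts 5′ of the lesion, changed by 0.04 ± 0.18 and -0.06 ± 0.18, and by 0.04 ± 0.17 and 0.05 ± 0.17 on its second probe. Xpa, which verifies the damage and holds the opened complex together, changed by -0.07 ± 0.09 in wild type and -0.18 ± 0.10 in labelled knockout, and by -0.06 ± 0.11 and -0.15 ± 0.11 on its second probe.

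**Figure D3:**
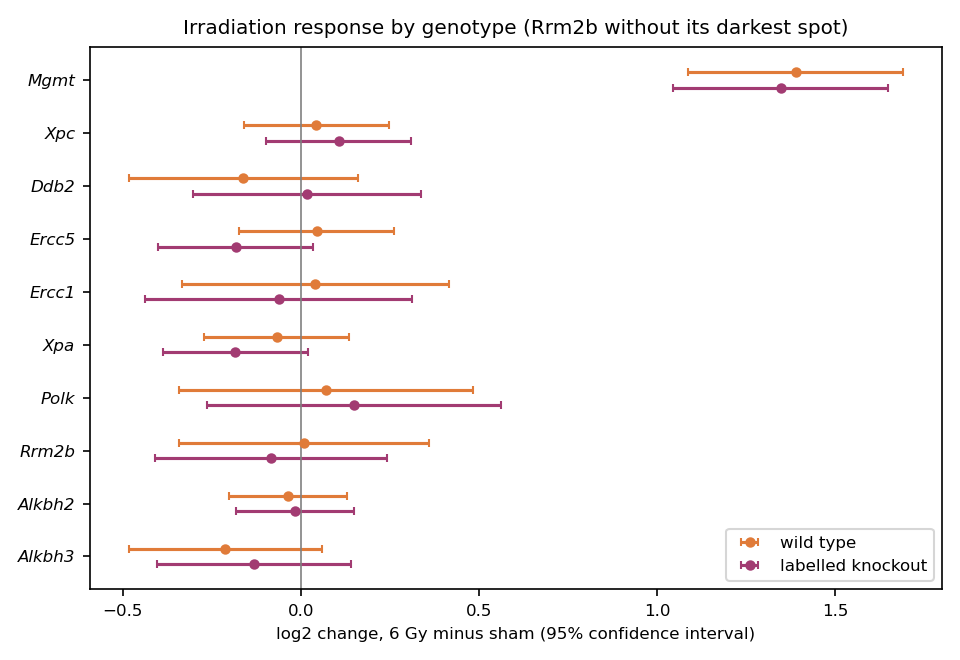
Log2 change after 6 Gy (x axis, irradiated minus sham) of the 10 members in wild type and labelled knockout, as limma estimates for each member's brightest probe with 95% confidence intervals, with Rrm2b computed without its spot at -8.61. The intervals of Mgmt lie between 1.05 and 1.69, and those of the other members include 0.

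Xpa was lower in irradiated labelled knockout than in irradiated wild-type mice, again without passing the test. Irradiated wild-type mice read 1.36, 1.37, 1.54 and 1.36 and irradiated labelled knockout mice 1.18, 1.11, 0.90 and 1.26. The groups did not overlap, as for 1 of 10 members and 8.73% of all genes. The difference was -0.30 ± 0.10 (1.23-fold lower, interval -0.50 to -0.09, limma unadjusted p = 0.00738, adjusted p = 0.129), and over 29 alternative settings the adjusted p ran from 0.0501 to 0.351. The second Xpa probe differed by -0.19 ± 0.11, and in sham mice the first differed by -0.18 ± 0.10 (adjusted p = 0.694). Limma called 0 of 10 members between the irradiated groups, against 205 of 17436 genes (1.18%), a count that ran from 4 to 3382 over the alternative settings.

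By the brightest probe, the levels of some members, Ercc1 and Polk most plainly, varied with the column of the array on its slide. This pattern was noticed after the values were seen. Replicate numbers 1 to 4 in the labels are also the slide columns. Ercc1 read 1.13, 1.36, 1.34 and 1.09 on the arrays of column 1 (wild-type sham, irradiated wild type, labelled knockout sham and irradiated labelled knockout), the highest value of its group in 4 of 4 groups. The column means of Ercc1 were 1.23, 0.93, 0.80 and 0.70. Polk was lowest on column 1 in 3 of 4 groups, with column means of -1.27, -0.92, -0.94 and -0.76. Mgmt was also lowest there in 3 of 4 groups, with column means of -1.85, -1.61, -1.63 and -1.68, and Xpc was highest there in 3 of 4 (-0.29, -0.37, -0.40 and -0.50). With the column as a block, Mgmt was still called after irradiation in each genotype (limma adjusted p = 0.00147 and 0.002). With the column as a block, the standard error of the irradiation change of Ercc1 was 0.10 instead of 0.18, and its changes of 0.04 and -0.06 were still not called (limma adjusted p = 1 each).

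**Figure D4:**
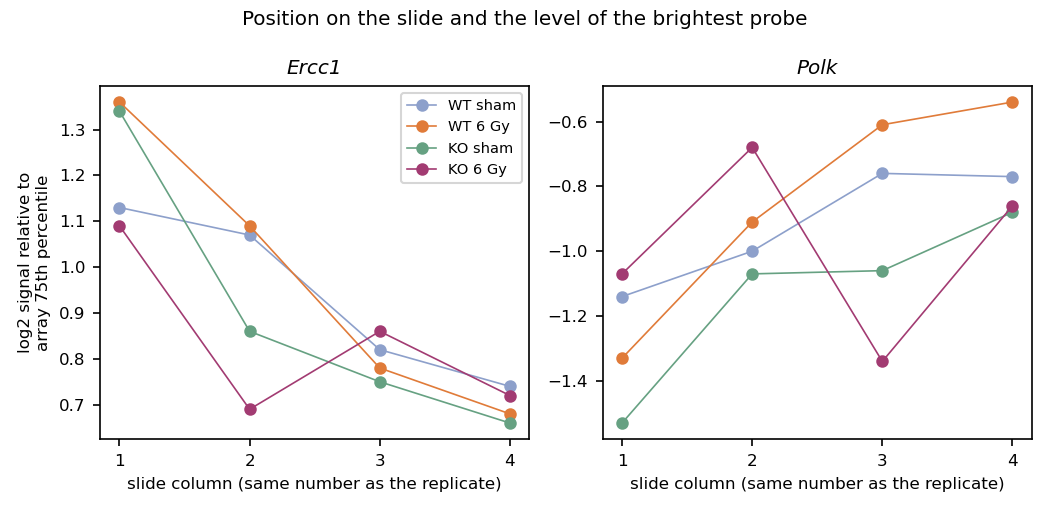
Level of the brightest probe of Ercc1 and Polk (y axes, log2 signal over the 75th percentile of the same array) by slide column (x axis, the same number as the replicate), with a line for each group of 4 arrays. Ercc1 is highest on column 1 in 4 of 4 groups, from 1.09 to 1.36, and Polk is lowest there in 3 of 4 groups.

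Polk, whose product extends DNA past bulky minor-groove adducts, was measured by 3 probes that did not give the same sizes. The brightest read -1.14, -1.0, -0.76 and -0.77 in wild-type sham, against -1.33, -0.91, -0.61 and -0.54 in irradiated wild type. In the labelled knockout it read -1.53, -1.07, -1.06 and -0.88 in sham and -1.07, -0.68, -1.34 and -0.86 after irradiation. Sham and irradiated ranges overlapped, and the change was 0.07 ± 0.19 in wild type and 0.15 ± 0.19 in labelled knockout (limma adjusted p = 1 each). The second probe changed by 0.01 ± 0.19 and 0.32 ± 0.19.

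The third and dimmest Polk probe gave larger differences. It read -5.88, -6.18, -6.83 and -6.00 in wild-type sham, against -5.51, -5.73, -5.93 and -5.78 in irradiated wild type. Labelled knockout mice read -6.56, -5.55, -5.70 and -4.99 in sham, against -5.08, -4.57, -5.35 and -4.85 after irradiation. Sham and irradiated mice overlapped in both genotypes, whereas the 2 irradiated groups did not. Its change was 0.49 ± 0.28 in wild type, 0.74 ± 0.28 in labelled knockout and 0.61 ± 0.20 over both, and it differed by 0.77 ± 0.28 between the irradiated groups. None of these was called among the 25857 probes tested one by one (limma adjusted p = 1, 0.559, 0.458 and 0.119). In that test 1 of 17 member probes, the Mgmt probe, was called in each irradiation comparison, against 15, 18 and 58 of all probes (0.058%, 0.0696% and 0.224%) in wild type, labelled knockout and the average. Between genotypes 0 of 17 were called in sham (0.0425% of all probes) and 0 of 17 after irradiation (6.36%), and 0 of 17 for the difference of responses (0%).

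Rrm2b, the p53-inducible small subunit of ribonucleotide reductase, had 1 array that decided its value. It read -1.44, -1.42, -1.46 and -1.42 in wild-type sham, against -1.59, -1.47, -1.21 and -8.61 in irradiated wild type. Labelled knockout mice read -1.69, -0.99, -1.39 and -1.47 in sham and -1.77, -1.25, -1.52 and -1.32 after irradiation. The spot at -8.61, on irradiated wild-type replicate 4, was the one spot of the 16 not well above background, and all other arrays lay between -1.77 and -0.99. With it the change in wild type was -1.79 ± 1.17 (limma adjusted p = 1, exact permutation p = 0.571). With that spot set to missing, a setting chosen after seeing the data, irradiated wild type averaged -1.42 ± 0.19 (SD, n = 3) and the change was 0.01 ± 0.16, with an interval of -0.34 to 0.36. In labelled knockout the change was -0.08 ± 0.15 in that fit, and over both genotypes -0.04 ± 0.11, which bounds a rise of Rrm2b at 1.15-fold.

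The dark Rrm2b spot lay near a corner of its array, at row 343 and column 4 of a grid of 384 rows and 164 columns. On this array 31 probes lay more than 4 log2 units below their median on the other arrays, although none was below -5 elsewhere. The other arrays had 0 to 5 such probes. Of the 31 spots, 28 lay in the 4 corners (60 rows by 30 columns each), which hold 11.4% of the grid. Ercc2, the helicase of the TFIIH complex, and Sprtn, a protease for proteins crosslinked to DNA, were low on the same array, at -1.85 against 0.43 to 1.06 elsewhere and at -4.65 against -1.38 to -0.56. Their spots lay in the outermost columns 1 and 2. Without that array the wild-type change of Ercc2 was -0.19 instead of -0.78 and that of Sprtn -0.08 instead of -1.05, and Mgmt changed by 1.32.

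Measured by the brightest probe of each gene, 8 members remained without Mgmt and Rrm2b, of which 4 were higher and 4 lower in wild type, 3 and 5 in labelled knockout, and 2 and 6 in the average over genotypes. The changes ran from -0.21 to 0.07, from -0.18 to 0.15 and from -0.17 to 0.11. None had an unadjusted p under 0.05 in these 3 comparisons by that probe, although the third Polk probe had 0.00847 in the average and 0.0208 in labelled knockout. The highest upper limit of the 95% intervals over both genotypes, that of Polk, allows a rise of 1.32-fold by that probe. The interval of the third Polk probe runs from 1.13-fold to 2.06-fold.

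The rest of the repair pathways was read from 8 lists of 81 genes, members included, all of which were tested. Mgmt was the one gene of the 81 that was called after irradiation in wild type, in labelled knockout and in the average, and 0 were called between genotypes or for the difference of responses. Among all genes 0.0746%, 0.12% and 0.304% were called after irradiation, in that order. Between genotypes the share was 0.0516% in sham and 1.18% after irradiation, and it was 0% for the difference. At the irradiation shares few or no calls are due in any list of this size. The median change of the 81 was 0.04 in wild type, 0.01 in labelled knockout and 0.02 in the average, beside 0.01, 0.00 and 0.00 over all genes. In the average 4 genes passed 1.5-fold in either direction, Mgmt, Rrm2b, Sprtn and Tk1. The values of Rrm2b and Sprtn rested on the array with dark corners.

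**Figure D5:**
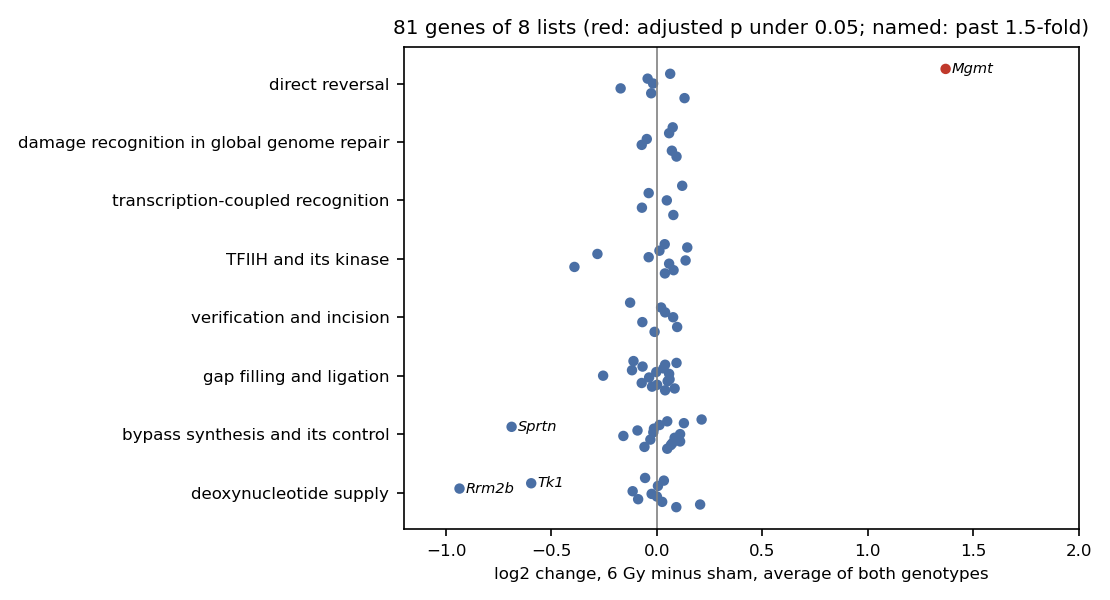
Log2 change after 6 Gy averaged over genotypes (x axis) of 81 genes in 8 repair lists (y axis), each point a gene, in red where the adjusted p was under 0.05 and named where the change passed 1.5-fold. Mgmt (1.37) is the one red point, and most of the other genes lie close to 0.

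The lists that surround the members held no other call, where 0.304% of all genes were called in the average over genotypes. The genes named from each list are, members left out, the 3 with the smallest p in that average. Of 7 direct-reversal genes 1 rose, Mgmt, while Alkbh1, a dioxygenase of the same family as Alkbh2, changed by 0.13 ± 0.08, and Ascc2 and Ascc3, parts of the complex that works with ALKBH3, by -0.04 ± 0.08 and 0.06 ± 0.06 (limma adjusted p = 1 each). Of 6 genes of damage recognition 0 were called and the median was 0.07, with Rad23b and Cetn2, the partners of XPC, at 0.06 ± 0.09 and 0.09 ± 0.11 and Ddb1, the partner of DDB2, at 0.07 ± 0.09. Of 5 genes of transcription-coupled recognition 0 were called (median 0.05). Ercc6, the remodeller recruited to stalled polymerase, changed by -0.07 ± 0.07, Xab2, which binds XPA, by 0.12 ± 0.11, and the elongation factor Elof1 by 0.08 ± 0.09.

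Of 10 genes of TFIIH and its kinase 0 were called (median 0.04). Its subunits Gtf2h3 and Gtf2h5 changed by -0.28 ± 0.14 and 0.14 ± 0.08, and Ercc2 by -0.39 ± 0.28 with the dark spot and -0.09 without that array. Of 7 genes of verification and incision 0 were called (median 0.02), with Ercc4, which encodes the XPF nuclease, at 0.10 ± 0.05 and the single-strand binding subunits Rpa1 and Rpa2 at 0.08 ± 0.08 and 0.04 ± 0.12. Of 17 genes of gap filling and ligation 0 were called (median 0.00), with the clamp loader subunit Rfc1 at -0.12 ± 0.08, the ligase Lig3 at 0.08 ± 0.07 and its scaffold Xrcc1 at -0.11 ± 0.07.

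Of 17 genes of bypass synthesis and its control 0 were called (median 0.05). Ube2b, the ubiquitin-conjugating enzyme that acts with RAD18 on PCNA, changed by 0.13 ± 0.09, and Wdr48, a cofactor of the deubiquitinase USP1, by 0.21 ± 0.11. Of 12 genes of deoxynucleotide supply 0 were called (median -0.01). Rrm2, the cell-cycle form of the subunit that Rrm2b replaces, changed by -0.11 ± 0.10, and Dctd, the dCMP deaminase, by 0.20 ± 0.12. Tk1, the thymidine kinase of dividing cells, read -4.75, -5.49, -5.53 and -4.99 in wild-type sham, against -5.60, -6.50, -6.25 and -5.56 in irradiated wild type. Labelled knockout mice read -4.95, -5.16, -5.64 and -6.11 for Tk1 in sham and -5.57, -5.86, -5.94 and -6.10 after irradiation. Its 4 irradiated wild-type mice were below its 4 sham mice, with nearest values of -5.56 and -5.53, and 1.97% of all genes did not overlap there. The labelled knockout groups overlapped. Tk1 was well above background on 15 of 16 arrays. Its change over both genotypes was -0.60 ± 0.19 (limma unadjusted p = 0.00796, adjusted p = 0.578).

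Some of a reference list of 15 known p53 target genes rose on the same arrays. In wild type 5 of 15 rose, in labelled knockout 5 and in the average 6, against 11, 13 and 29 of 17436 genes, with medians of 0.53, 0.55 and 0.54 beside 0.01, 0.00 and 0.00 over all genes. The 6 were Cdkn1a, which encodes the cell-cycle inhibitor p21 (1.32 ± 0.13), Gdf15, a stress cytokine (1.90 ± 0.12), Trp53inp1 (1.03 ± 0.06), Tnfrsf10b, a death receptor (1.13 ± 0.09), Aen, a nuclease (0.72 ± 0.10), and Eda2r. Eda2r is in each of the 3 counts, but it was well above background on 0 sham arrays. It passed the filter on dim probes only through the irradiated groups, so its calls are no separate evidence. The other 9 were not called, with average changes from -0.21 ± 0.21 for Plk2, a kinase, to 0.67 ± 0.14 for Phlda3, an inhibitor of AKT signalling. Among them were Mdm2, the ubiquitin ligase of p53 (0.15 ± 0.08), Bax, a promoter of apoptosis (0.19 ± 0.12), and Zmat3 (0.05 ± 0.06). Ccng1 changed by 0.536 ± 0.165, Sesn2 by 0.23 ± 0.09, Ei24 by 0.17 ± 0.08 and Bbc3 by 0.16 ± 0.09. All 9 were named after their values were seen. Of the 15 genes, 14 were higher in wild type, in labelled knockout and in the average, called or not. Ddb2, Xpc and Rrm2b, members that are also known as p53 targets in human cells, had average changes of -0.07 ± 0.11, 0.07 ± 0.07 and, without the dark spot, -0.04 ± 0.11.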

How the data were processed

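Agilent Feature Extraction 12.0.3.1 produced the deposited intensity (processed signal) of each spot, with background subtraction and detrending on each array but no scaling between arrays, per the file headers. The authors also deposited a score table (method not given in the sources used here). Every score column had mean 0, SD 1 and median -0.08 and correlated with the log signal at r of 0.9996 or more, so its scale and centring are inferred and it served as an alternative only.

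Control spots were left out, outlier-marked spots set to missing, and each array's 75th percentile subtracted after log2. A probe was kept when well above background on at least 4 of 16 arrays (39589 of 56605), and a gene needed values on 12. RefSeq accessions identified 35886 probes, and a GRCm38.p6 gene table named 32994 of them. The array design names another build, so that table gave names only. The brightest probe stood for a gene.

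Limma 3.58.1 (R 4.3.3) fitted a mean per group over 16 arrays, with two-sided p-values, Benjamini-Hochberg adjustment over 17436 genes and calls at an adjusted p under 0.05. The fit was tested on simulated data. The genes named are the members, called genes, and the 3 smallest p-values of each list among genes that are no members, plus the 6 genes most correlated with Mgmt. The members, lists and rule were chosen with earlier results of these data known.

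Alternatives were normexp background correction, quantile normalization, no filter, 2-group fits, trended variances, array weights, a replicate block, other probe rules, the deposited scores, and each array left out in turn. Normexp used the median spot signal (offset 50), not the planned mean signal. Same-numbered arrays correlated over 0.1 in 11 of 24 pairs (median 0.07), so the numbers were not taken as pairs. The number of arrays limits precision.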

Additional observations from a re-analysis of the deposited data

Results flagged for a closer look

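Within groups of 4 mice, 9 of 68 combinations of member probe and group held an array that stood apart from the other 3 by Dixon's criterion at the 95% level. Chance gives about 1 in 20. The Rrm2b spot of irradiated wild-type replicate 4 stood apart at -8.61 (nearest array -1.59). For the first Xpa probe, wild-type sham replicate 1 stood apart at 1.33 (nearest 1.52) and irradiated wild-type replicate 3 at 1.54 (nearest 1.37). For the second Xpa probe it was labelled knockout sham replicate 1 at -0.50 (nearest -0.78) and irradiated labelled knockout replicate 4 at -0.73 (nearest -0.92). Ercc5 read -0.44 in irradiated wild-type replicate 2 (nearest -0.64) and -0.99 in irradiated labelled knockout replicate 3 (nearest -0.60). The second Ercc1 probe read 0.24 in labelled knockout sham replicate 1 (nearest -0.25), and the second Ddb2 probe -1.19 in irradiated wild-type replicate 3 (nearest -0.85). No Mgmt array stood apart in this way.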

How the results depend on the processing

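Mgmt was called after irradiation in all 29 alternatives in wild type (1.28 to 1.49, adjusted p up to 0.0172), all 29 in labelled knockout (1.19 to 1.43, up to 0.042) and all 28 in the average (1.24 to 1.42, up to 0.000182). These ranges of log2 change leave out the deposited scores, which are in another unit and gave score differences of 0.375, 0.368 and 0.371, each of them called. The other 9 members were called in 0 of 1542 alternative values, of which 69 differed in sign from the uncalled value reported. The count of called members therefore stayed at 1, 1, 1, 0, 0 and 0. Counts over all genes were less stable. Irradiation in wild type gave 21 genes with array weights, and 10 to 16 when 1 array was left out. In labelled knockout it gave 6 in the fit of these groups alone, 7 without the 2 arrays with the lowest share of spots above background (irradiated labelled knockout replicates 3 and 4, chosen after seeing the data) and 11 to 22 when 1 array was left out, with 11, 13 and 13 without labelled knockout sham replicates 2, 3 and 4. The average gave 84 with array weights and 38 to 47 when 1 array was left out. Genotype in sham gave 2 when fitted on these groups alone, 45 with array weights and 5 to 14 when 1 array was left out (5 and 14 without labelled knockout sham replicates 3 and 2). Genotype after irradiation gave 3382 with normexp background, 1798 without the filter, 1645 with each probe on its own, 494 with the mean of probes, 434 with array weights, 89 with quantile normalization, 76 with the deposited scores, 18 in the fit of these groups alone, 4 without the same 2 arrays and 17 to 470 when 1 array was left out. The cause was not tested. The arrays share only a replicate number, which is the slide column. With that number as a replicate block, irradiation in labelled knockout gave 13 genes, and Mgmt had adjusted p of 0.00147, 0.002 and 4.64e-05. A slide block was not run, because slide and genotype coincide.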
